A study of Rattus norvegicus with 30 samples.

Results

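The matrix metalloproteinase genes were followed in the plantaris tendon of rats after tenotomy and repair. The 10 genes Mmp2, Mmp3, Mmp9, Mmp11, Mmp12, Mmp13, Mmp14, Mmp16, Mmp19 and Mmp23 were chosen by name, with earlier results of these data known. In the count table of 13124 genes, 9 of the 10 were found. Mmp11 was not analysed here. All 9 genes found were among the 12558 genes past the filter on expression, which asked for a group mean of 3 CPM (counts scaled to a common library size) or more somewhere among the 7 groups. RNA sequencing counts were available for 30 tendons of Sprague Dawley rats, in 7 groups. The Control group held 3 tendons (labelled 0 days, 0 mg/kg) from rats without surgery or test compound. The other tendons were cut through, sutured and collected 7 days (7D) or 21 days (21D) later from rats given GSK2894631A, an inhibitor of hematopoietic prostaglandin D synthase, by mouth at 0 (vehicle), 2 or 6 mg/kg. The 7D groups held 5 (0 mg/kg), 4 (2 mg/kg) and 3 (6 mg/kg) tendons, and each 21D group held 5. In every operated rat the neighboring Achilles tendon was left intact. All rats were male young adults, so that the values hold for 1 sex. No sham-operated rats are among the groups, so in the comparisons with Control the cut, the suture and the surgery itself cannot be told apart.

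Matrix metalloproteinases are zinc-dependent enzymes that cut the proteins of the extracellular matrix. Most are secreted as inactive proenzymes, a few are anchored in the cell membrane, and the tissue inhibitors of metalloproteinases (TIMPs) block the active forms. Their transcript levels measure neither secretion nor activation. In tendon they take part in normal collagen turnover and in the removal of damaged matrix and the remodeling of scar after injury.

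Total counts lay between 12405741 and 49909374 per tendon, so that 3 counts corresponded to 0.0562 to 0.245 CPM. The CPM values below are scaled by the trimmed mean of M-values (TMM), whose factors were 0.599 to 0.788 in Control tendons and 0.950 to 1.10 in repaired tendons. Skeletal muscle markers (29 of 34 found) accounted for 20.2% to 28.7% of all counts in Control, 0.0150% to 1.36% at 7D and 0.0789% to 10.1% at 21D, and all 29 were lower than Control in each 7D group. The share of muscle RNA thus changed together with the injury in every comparison with Control. Of the tendon fibroblast markers, the tendon transcription factor Scx was at 27.2 ± 9.25 CPM (mean ± SD, n = 3) in Control tendons, where the tendon membrane protein gene Tnmd was at 229.8 ± 118 CPM. The mean of Mkx, another tendon transcription factor, was 5.69 CPM in Control tendons and between 0.330 and 1.06 CPM in the repaired groups. Of the 7 tendon fibroblast markers found, 1 rose (Col1a1, by a log2 fold change of 1.14 ± 0.33, adjusted p = 0.00390) and 3 fell (Mkx, Tnmd and Fmod) at 7D 0 mg/kg, and 0 or 1 rose and 1 to 3 fell in the other repaired groups. Their summed level was 8841 to 34945 CPM in Control and 21642 to 53176 CPM in repaired tendons, with overlap. Of all genes tested, 30.8% to 35.8% rose and 33.3% to 35.6% fell in the 6 comparisons with Control.

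Most metalloproteinase genes were higher in repaired than in uninjured tendon at both times and all doses. In 7D 0 mg/kg tendons 7 of the 9 genes rose against Control and none fell, while 35.8% of all genes tested rose and 35.6% fell. At 7D 2 mg/kg 8 of 9 rose (35.8% of all genes rose and 34.0% fell), and at 7D 6 mg/kg 7 of 9 rose (34.1% and 33.8%). At 21D 8 of 9 rose at each dose. The shares of all genes that rose and fell were 32.2% and 33.7% at 21D 0 mg/kg, 33.8% and 35.3% at 21D 2 mg/kg, and 30.8% and 33.3% at 21D 6 mg/kg. None of the 9 genes fell in any of these 6 comparisons. Mmp9, Mmp12 and Mmp13 had Control means of 0.395, 1.27 and 0.176 CPM and passed the filter only through repaired groups. They could therefore hardly have been called lower, and their part of these counts is not a free outcome. The median log2 fold change of the 9 genes against Control was between 2.27 and 2.87, and that of all genes tested was between 0.01 and 0.05. All 6 comparisons use the same 3 Control tendons. Without TMM scaling the median of all genes moved to between 0.51 and 0.64, and 74.1% to 77.9% of the genes called were higher, against 48.0% to 51.3% with it. A gene was called, and is said to have risen or fallen, where the quasi-likelihood test of edgeR gave an adjusted p under 0.05 (Benjamini-Hochberg, over all genes tested). With the summed muscle markers added to the model as a covariate on the log2 scale, the count fell from 8 to 2 at 7D 2 mg/kg and from 7 to 3 at 7D 6 mg/kg, and stayed at 7 or 8 in the other 4 comparisons. The summed markers were at 140 to 178 CPM in those 7D tendons and at 749 CPM or more in every other tendon, so that the covariate and these groups can hardly be told apart. The Control tendons, at 256064 to 478724 CPM, also lay above every repaired tendon (at most 106463 CPM). The covariate and the injury can therefore hardly be told apart in any of the 6 comparisons, also where the count stayed. With the skeletal muscle genes left out of the table, all of these counts were the same as with them (7, 8 and 7 at 7D and 8 in each 21D group). That run changes the scaling and leaves the muscle content of each tendon unadjusted, so it cannot decide what part muscle has.

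**Figure D1:**
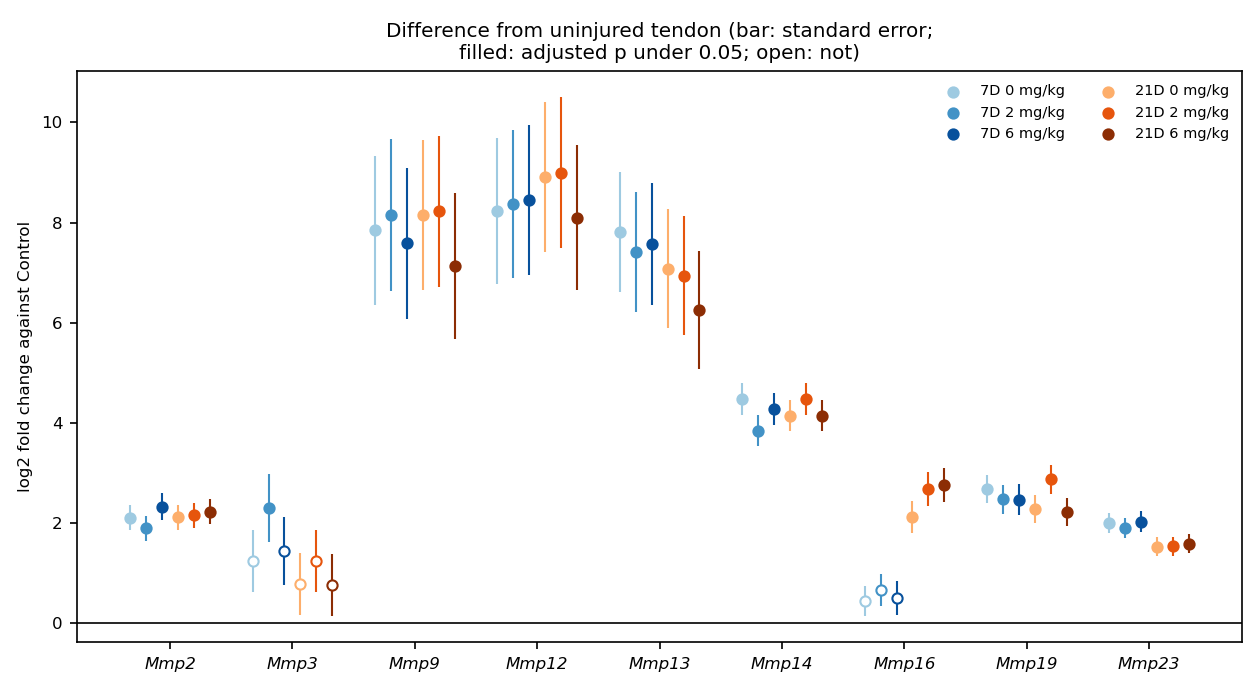
Log2 fold change against Control (y axis) of each metalloproteinase gene (x axis) in the 6 repaired groups; points are estimates from edgeR, bars their standard errors, and open points did not pass an adjusted p of 0.05. Mmp9, Mmp12 and Mmp13 lie between 6.25 and 8.999, Mmp14 between 3.84 and 4.48, and Mmp16 is open at 7D and filled at 21D.

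Mmp14 (ENSRNOG00000010947, chromosome 15 of rn6) codes for MT1-MMP, a membrane-anchored collagenase that also activates the proenzyme of MMP2. Its level in the Control tendons was 56.2, 63.1 and 30.1 CPM. In 7D 0 mg/kg tendons it was 633, 1216, 1354, 1308 and 1036 CPM, and in 21D 0 mg/kg tendons 714, 1121, 1138, 769.8 and 645 CPM. Both vehicle groups lay above Control and overlapped with each other. With 2 mg/kg the tendons were at 806, 907, 644 and 505 CPM on day 7 and at 1099, 959, 1181, 1156 and 1133 CPM on day 21. With 6 mg/kg they were at 1043, 1107 and 740.3 CPM on day 7 and at 711, 720.4, 1098, 893 and 967 CPM on day 21. Every repaired tendon was above every Control tendon. The log2 fold change against Control was 4.48 ± 0.32 (SE; adjusted p = 3.36e-11) at 7D 0 mg/kg and 4.14 ± 0.31 (adjusted p = 3.52e-10) at 21D 0 mg/kg. In the treated groups it lay between 3.84 and 4.47, with adjusted p of 4.27e-10 or less.

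Mmp2 (ENSRNOG00000016695, chromosome 19) codes for gelatinase A, which degrades denatured collagen and type IV collagen. It was at 724, 798 and 389 CPM in the Control tendons. At 7D 0 mg/kg the values were 2019.5, 3250.4, 2701, 3191 and 2505 CPM, and at 21D 0 mg/kg 2305, 2661, 3831, 2497 and 2420.0 CPM. The vehicle groups of both days lay above Control and overlapped with each other. Mmp2 in the 2 mg/kg groups was at 2780.1, 2645, 2075 and 1949 CPM on day 7 and at 3107, 2603, 2824, 2499 and 3129.7 CPM on day 21. In the 6 mg/kg groups Mmp2 was at 2879, 3638 and 3044 CPM on day 7 and at 2477, 2299, 4367, 2908 and 2821 CPM on day 21. The lowest repaired tendon of any group, at 1949 CPM, was above the highest Control tendon. Mmp2 rose by a log2 fold change of 2.10 ± 0.25 (adjusted p = 5.75e-08) at 7D 0 mg/kg and 2.11 ± 0.25 (adjusted p = 1.31e-07) at 21D 0 mg/kg, and by 1.89 to 2.32 in the treated groups.

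Mmp13, Mmp3 and Mmp12 lie on chromosome 8 of rn6, with Mmp7, Mmp8, Mmp10 and Mmp27. RefSeq promoters (GRCr8) were found for Mmp3, Mmp11, Mmp12, Mmp13 and Mmp23, 5 of the 10 genes. The 250 bases before the transcription start of Mmp3, Mmp12 and Mmp13 are shown because these 3 genes share 2 motifs close to the start. Capitals mark the AP-1 motif TGANTCA and the TATA motif TATAAA, searched on both strands together with AGGAAG (PEA3) and ACCACA (RUNX), which are left in lower case. The AP-1 motif does not overlap the other motifs in these 3 sequences.
Mmp3, chr8:12925031-12925280, plus strand: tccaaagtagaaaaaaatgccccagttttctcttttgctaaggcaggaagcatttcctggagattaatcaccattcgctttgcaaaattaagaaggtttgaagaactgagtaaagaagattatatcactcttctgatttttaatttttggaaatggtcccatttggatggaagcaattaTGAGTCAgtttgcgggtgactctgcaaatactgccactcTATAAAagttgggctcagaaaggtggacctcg
Mmp12, chr8:12866402-12866651, plus strand: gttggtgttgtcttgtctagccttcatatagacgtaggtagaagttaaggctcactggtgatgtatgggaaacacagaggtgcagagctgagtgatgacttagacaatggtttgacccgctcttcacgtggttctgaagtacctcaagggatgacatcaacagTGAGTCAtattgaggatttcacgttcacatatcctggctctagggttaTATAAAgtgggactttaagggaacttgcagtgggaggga
Mmp13, chr8:12782579-12782828, plus strand: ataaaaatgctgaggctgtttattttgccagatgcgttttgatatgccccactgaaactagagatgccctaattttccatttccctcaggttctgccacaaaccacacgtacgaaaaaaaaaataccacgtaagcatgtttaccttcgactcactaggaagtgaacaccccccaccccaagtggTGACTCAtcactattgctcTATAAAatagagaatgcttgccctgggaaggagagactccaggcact
The AP-1 motif began 71, 87 and 66 bases before the start in Mmp3, Mmp12 and Mmp13, and the TATA motif 32, 39 and 47 bases before it. The pair is not particular to these genes. Among other Mmp promoters searched, AP-1 and TATA motifs began 61 and 33 bases before the start in Mmp10, 80 and 43 in Mmp7 and 84 and 42 in Mmp1. Mmp8 held the TATA motif without the AP-1 motif, and Mmp27, Mmp15 and Mmp24 held neither. Among 33465 RefSeq promoters of the same length, 6.34% held the AP-1 motif, 12.9% the TATA motif, 29.5% the PEA3 motif and 14.5% the RUNX motif. PEA3 letters were found 206 bases before the start of Mmp3 and 95 bases before that of Mmp13, and RUNX letters 149 bases before that of Mmp13. In Mmp23 (chr5:171524535-171524784, minus strand) and Mmp11 none of the 4 motifs was present in this window.

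Mmp13 (ENSRNOG00000008478) codes for collagenase 3, which cuts fibrillar collagen. It had 0, 5 and 4 counts in the Control tendons, or 0, 0.200 and 0.327 CPM, and a count of 0 in the first allows up to 0.142 CPM (3 counts; counting error only). In 7D 0 mg/kg tendons it was at 19.6, 21.1, 109.9, 12.03 and 17.4 CPM, and in 21D 0 mg/kg tendons at 21.5, 31.8, 18.8, 20.4 and 16.1 CPM. The tendon at 109.9 CPM stood far above the other 7D 0 mg/kg tendons. With 2 mg/kg the tendons were at 38.4, 38.2, 14.7 and 17.3 CPM on day 7 and at 3.99, 17.2, 14.5, 46.4 and 16.2 CPM on day 21. With 6 mg/kg they were at 31.0, 51.3 and 9.91 CPM on day 7 and at 19.0, 4.67, 15.2, 4.40 and 17.8 CPM on day 21. All repaired tendons were above Control, from 3.99 CPM upward. Its log2 fold change was 7.81 ± 1.20 (adjusted p = 3.12e-06) at 7D 0 mg/kg, 7.08 ± 1.19 (adjusted p = 1.46e-05) at 21D 0 mg/kg and lowest, at 6.25 ± 1.18 (adjusted p = 6.51e-05), at 21D 6 mg/kg. With so few counts in Control the size of these changes is loosely bounded, from 5.34 to 10.28 (95% interval) at 7D 0 mg/kg.

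Mmp12 (ENSRNOG00000030187), macrophage elastase, cuts elastin and other matrix proteins. It was at 0.708, 1.64 and 1.47 CPM in the Control tendons. The 7D 0 mg/kg tendons were at 879, 237, 302, 125 and 370.5 CPM, and the 21D 0 mg/kg tendons at 168, 1604, 91.7, 373 and 803 CPM. Both vehicle groups were above Control, with wide and overlapping ranges. Mmp12 in the 2 mg/kg groups was at 704, 581, 275 and 124 CPM on day 7 and at 151, 1329.8, 148, 1405 and 219 CPM on day 21. In the 6 mg/kg groups Mmp12 was at 990.3, 236 and 108 CPM on day 7 and at 81.0, 95.8, 300.2, 302 and 961 CPM on day 21. Every repaired tendon was above every Control tendon, and tendons of 1 group differed by up to 17.5 times. The log2 fold change was 8.23 ± 1.46 (adjusted p = 2.13e-05) at 7D 0 mg/kg and 8.90 ± 1.499 (adjusted p = 1.57e-05) at 21D 0 mg/kg, and between 8.10 and 8.999 in the treated groups.

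Mmp9 (ENSRNOG00000017539, chromosome 3) codes for gelatinase B, made by neutrophils, macrophages and osteoclasts among other cells. It had 14, 7 and 3 counts in the Control tendons (0.661, 0.281 and 0.245 CPM). It was at 174, 53.5, 125, 30.6 and 91.0 CPM at 7D 0 mg/kg, and at 77.3, 156, 22.2, 77.4 and 254 CPM at 21D 0 mg/kg. The 2 vehicle groups overlapped with each other and not with Control. With 2 mg/kg the tendons were at 118, 169, 156 and 24.7 CPM on day 7 and at 10.7, 87.1, 29.2, 451 and 38.5 CPM on day 21. With 6 mg/kg they were at 118, 97.4 and 22.9 CPM on day 7 and at 16.8, 58.9, 47.4, 15.9 and 149.7 CPM on day 21. Every repaired tendon was above Control. In the 21D 2 mg/kg group the tendons spanned 10.7 to 451 CPM, the widest ratio within a group (41.9 times) among the repaired groups of all 9 genes. The log2 fold change was 7.85 ± 1.49 (adjusted p = 5.07e-05) at 7D 0 mg/kg and 8.15 ± 1.51 (adjusted p = 4.88e-05) at 21D 0 mg/kg.

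Markers of several cell types differed between Control and repaired tendons. The 6 osteoclast markers found of 8 all rose against Control in each repaired group, with a summed level of 71.0 to 165 CPM in Control tendons and 582 to 1858 CPM in repaired tendons. Of 9 macrophage markers, 7, 7 and 9 rose on 7D, in order of dose, and 5, 5 and 4 on 21D (340.3 to 1336 CPM in Control, 711 to 3109 CPM in repaired tendons). Of 5 neutrophil markers, 4, 4 and 5 rose at 7D and none at 21D, with summed levels of 10.05 to 15.9 CPM in Control, 26.1 to 138 CPM at 7D and 8.32 to 36.0 CPM at 21D. Of 6 T cell markers, 6 rose in each 7D group and 5 in each 21D group (13.8 to 89.0 CPM in Control, 54.9 to 278.9 CPM in repaired tendons). Beside these counts, 34.1% to 35.8% of all genes tested rose in the 7D groups and 30.8% to 33.8% in the 21D groups. The summed neutrophil markers at 21D overlapped with Control and reached above it. No marker found was at 0 in every tendon of a group. More cells of a type and more RNA per cell cannot be told apart in whole tendon, and the part of these cells in the metalloproteinase changes was not tested.

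Mmp3 (ENSRNOG00000032626) codes for stromelysin 1, which degrades proteoglycans and fibronectin and activates procollagenases. The Control tendons were at 55.0, 38.6 and 3.92 CPM, a spread of 14.0 times. The vehicle tendons were at 104, 40.6, 155, 30.8 and 55.5 CPM on day 7 and at 36.7, 99.98, 28.3, 66.1 and 49.8 CPM on day 21. Both vehicle groups overlapped with Control and with each other. Mmp3 in the 2 mg/kg groups was at 120.0, 152, 86.7 and 283 CPM on day 7 and at 35.7, 111, 70.8, 104 and 63.0 CPM on day 21. In the 6 mg/kg groups Mmp3 was at 50.5, 70.0 and 146 CPM on day 7 and at 44.6, 27.7, 74.0, 52.9 and 77.5 CPM on day 21. Only the 7D 2 mg/kg tendons were all above the Control tendons. Mmp3 rose in that group alone, by 2.29 ± 0.68 (adjusted p = 0.00425), and with the muscle covariate this difference was -0.57 (adjusted p = 0.783). The differences in the other 5 groups lay between 0.76 and 1.44 with adjusted p of 0.0646 to 0.287, and none of the dose comparisons of Mmp3 passed the test. Without the Control tendon at 55.0 CPM, Mmp3 also passed at 7D 0 mg/kg (adjusted p = 0.0376), at 7D 6 mg/kg (adjusted p = 0.0296) and at 21D 2 mg/kg (adjusted p = 0.0400), and it passed at 7D 0 mg/kg without the tendon at 30.8 CPM (adjusted p = 0.0475) and at 7D 6 mg/kg without the tendon at 50.5 CPM (adjusted p = 0.0455). Reads that match both Mmp3 and its close relative Mmp10 may be split between them, and how these were counted is not given in the sources used here.

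Mmp19 (ENSRNOG00000006778, chromosome 7) codes for a secreted enzyme that cuts basement membrane proteins. It was at 19.2, 27.5 and 7.35 CPM in the Control tendons, at 107, 103, 122, 111 and 138 CPM at 7D 0 mg/kg and at 63.4, 99.6, 86.7, 121 and 67.3 CPM at 21D 0 mg/kg. The 2 vehicle groups overlapped with each other, above Control. With 2 mg/kg the tendons were at 116, 91.0, 85.0 and 109.9 CPM on day 7 and at 141, 129, 162, 116 and 118 CPM on day 21. With 6 mg/kg they were at 92.6, 94.1 and 114 CPM on day 7 and at 75.2, 68.2, 73.8, 103 and 104 CPM on day 21. No repaired tendon overlapped with Control. The log2 fold change was 2.67 ± 0.29 (adjusted p = 1.56e-08) at 7D 0 mg/kg and 2.27 ± 0.28 (adjusted p = 2.77e-07) at 21D 0 mg/kg.

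Mmp23 (ENSRNOG00000017477, chromosome 5) codes for a membrane-bound enzyme that is released by furin-type cleavage. It was at 29.5, 36.2 and 16.6 CPM in the Control tendons. The 7D 0 mg/kg tendons were at 95.9, 111, 117, 116 and 108 CPM and the 21D 0 mg/kg tendons at 70.3, 70.6, 97.2, 89.2 and 67.3 CPM. The ranges of both vehicle groups met, above Control. Mmp23 in the 2 mg/kg groups was at 106, 83.1, 109 and 110.2 CPM on day 7 and at 82.1, 67.6, 91.2, 61.6 and 95.7 CPM on day 21. In the 6 mg/kg groups Mmp23 was at 104, 126 and 105 CPM on day 7 and at 90.1, 74.7, 94.7, 79.5 and 72.6 CPM on day 21. All of the repaired tendons were above Control. Its log2 fold change was 2.00 ± 0.20 (adjusted p = 4.16e-09) at 7D 0 mg/kg and 1.52 ± 0.19 (adjusted p = 3.49e-07) at 21D 0 mg/kg. Mmp23 had the smallest coefficient of variation of the 9 genes in the 7D 0 mg/kg group (7.83%), where that of Mmp13 was 115%.

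**Figure D2:**
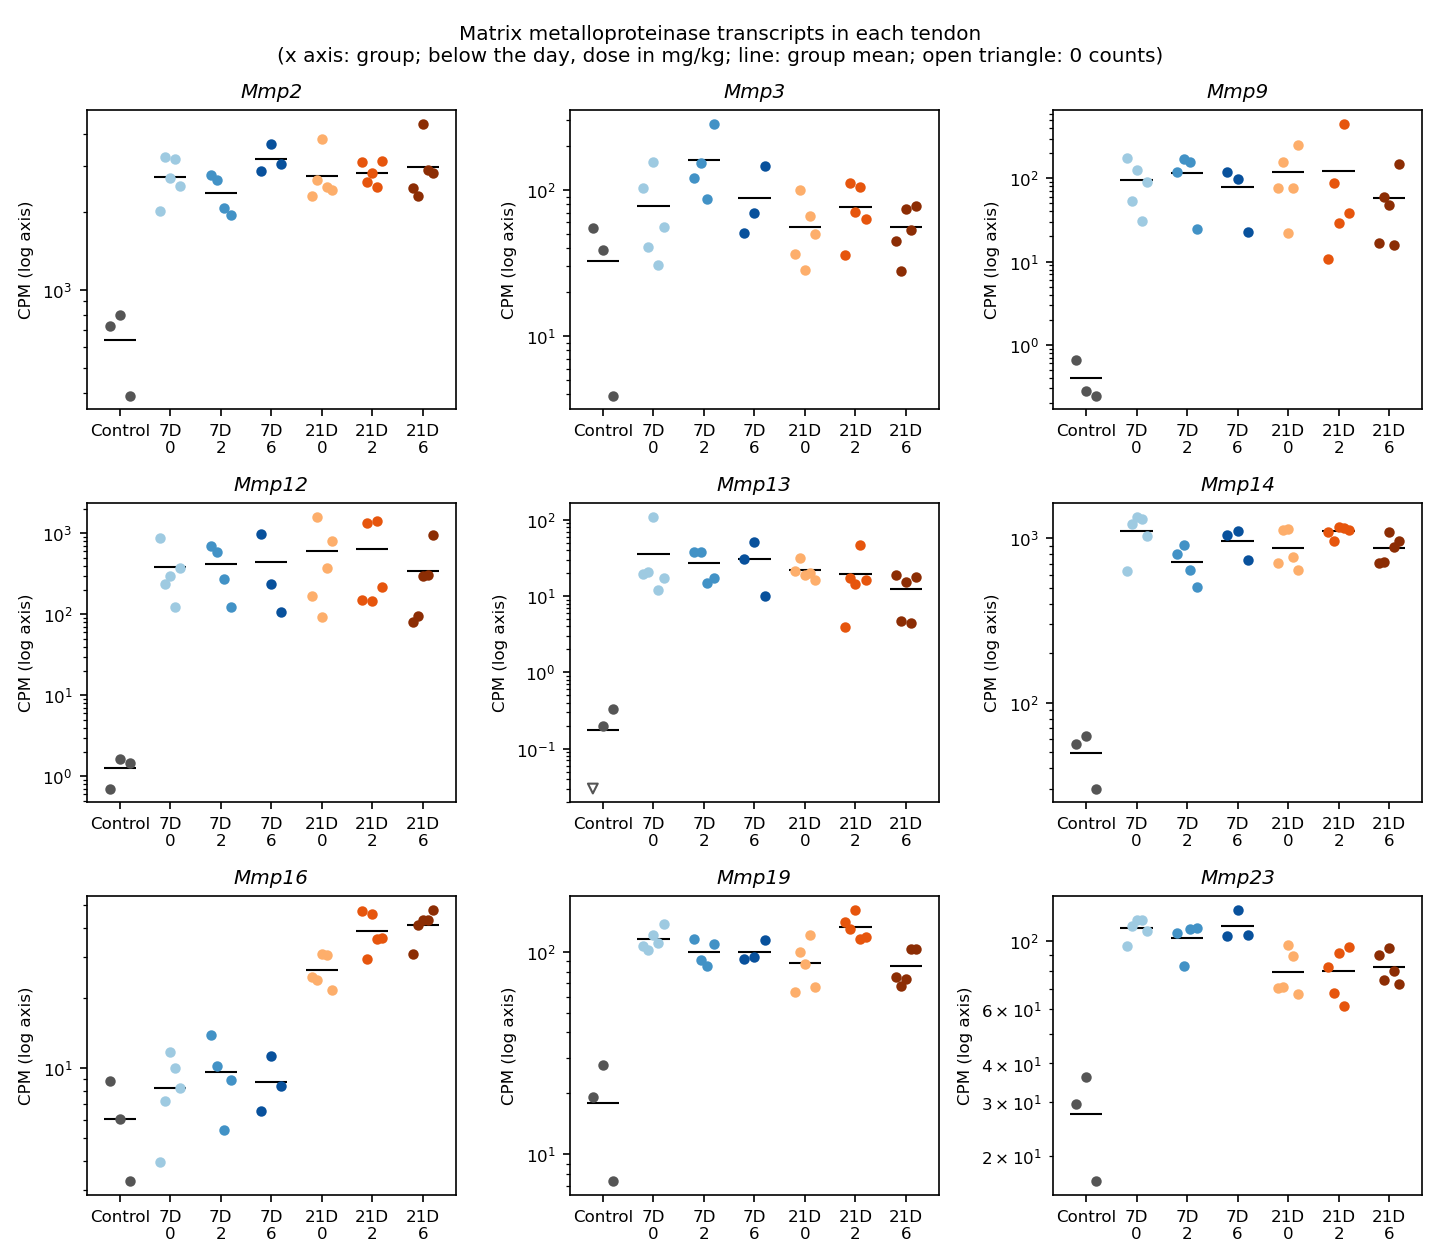
TMM-scaled CPM (y axis, log scale) of each metalloproteinase gene in each of the 30 tendons (points) of the 7 groups (x axis), with the group mean as a line and 1 tendon with 0 counts of Mmp13 as an open triangle. Control tendons lie below all repaired tendons in 7 panels, and the 21D tendons of Mmp16 (21.7 to 47.9 CPM) lie above all other tendons of that gene.

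Mmp16 (ENSRNOG00000005708, chromosome 5) alone of the 9 genes passed the test between 7D and 21D. It codes for MT3-MMP, a membrane-anchored enzyme that can activate proMMP2. It was at 8.78, 6.05 and 3.27 CPM in the Control tendons. The 7D vehicle tendons were at 3.98, 7.24, 11.8, 10.0002 and 8.26 CPM. The treated 7D tendons were at 13.9, 10.2, 5.41 and 8.93 CPM (2 mg/kg) and 6.55, 11.3 and 8.42 CPM (6 mg/kg). All of the 7D groups overlapped with Control and with each other.

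At 21D Mmp16 was at 24.7, 24.01, 30.9, 30.6 and 21.7 CPM with 0 mg/kg. With 2 mg/kg it was at 47.2, 29.5, 45.9, 35.9 and 36.2 CPM, and with 6 mg/kg at 30.9, 41.2, 43.3, 43.2 and 47.9 CPM. The lowest 21D tendon was thus above the highest tendon of Control or 7D, at 13.9 CPM. Against Control, Mmp16 did not pass the test at 7D (log2 fold changes of 0.43 ± 0.31, 0.66 ± 0.32 and 0.51 ± 0.34 in order of dose, with adjusted p = 0.206, 0.0681 and 0.188). At 21D it rose by 2.11 ± 0.32, 2.67 ± 0.33 and 2.76 ± 0.33 (adjusted p = 4.74e-06, 1.93e-07 and 2.20e-07). At 7D 2 mg/kg it passed when the Control tendon at 8.78 CPM (adjusted p = 0.0220), the 7D 2 mg/kg tendon at 5.41 CPM (adjusted p = 0.0202) or the 7D 0 mg/kg tendon at 3.98 CPM (adjusted p = 0.0421) was left out.

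The direct comparison of 21D with 7D gave, in order of dose, log2 differences of 1.68 ± 0.26, 2.01 ± 0.29 and 2.25 ± 0.32 for Mmp16 (adjusted p = 0.00114, 0.000100 and 0.000320). It was the only one of the 9 genes that passed in these 3 comparisons, and none of the 9 was lower. Of all genes tested, the shares higher at 21D were 2.88%, 7.09% and 8.54%, and the shares lower 2.47%, 5.98% and 4.55%, in the same order. The higher level held in each of the alternative fits, including the one with the muscle covariate. At 2 mg/kg the summed muscle markers were at 140 to 173 CPM at 7D and 12760 to 34000.5 CPM at 21D. At 6 mg/kg they were at 148 to 178 and 3528 to 106463 CPM. These ranges do not overlap, so at 2 and 6 mg/kg the covariate fit cannot separate the day from the muscle share. Skeletal muscle markers were also higher at 21D than at 7D (3, 29 and 29 of 29), and within groups the deviations of Mmp16 and of the summed muscle markers had r = -0.15 (rho = -0.20) over 27 repaired tendons.

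Among the other genes, the mean level of Mmp23 was lower at 21D than at 7D with log2 differences of -0.47 ± 0.16, -0.36 ± 0.16 and -0.44 ± 0.18 in order of dose, and none of these passed the test (adjusted p = 0.0689, 0.155 and 0.107). At 6 mg/kg the groups did not overlap, with 72.6 to 94.7 CPM at 21D and 104 to 126 CPM at 7D. Mmp23 passed at 0 mg/kg without the Control tendon at 16.6 CPM (adjusted p = 0.0246) or without the 21D tendon at 97.2 CPM (adjusted p = 0.0494), and at 6 mg/kg without that Control tendon (adjusted p = 0.0360). Mmp14 at 2 mg/kg was at 806, 907, 644 and 505 CPM at 7D and at 1099, 959, 1181, 1156 and 1133 CPM at 21D. These groups did not overlap and differed by 0.63 ± 0.23 (adjusted p = 0.0754), and the difference passed without the Control tendon at 30.1 CPM (adjusted p = 0.0441). It also passed in 4 of 9 other fits, which were DESeq2 (adjusted p = 0.0357), edgeR on only the groups compared (0.0322), the replicate block (0.0192) and the muscle covariate (1.31, adjusted p = 0.0150). For Mmp2 the interval of the 21D minus 7D difference at 0 mg/kg was -0.40 to 0.41, while for Mmp12 it was -1.02 to 2.35.

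The dose comparisons address whether GSK2894631A at these doses changed these transcripts. The counts hold no measure of prostaglandin D2, so how far its synthesis was lowered in these tendons is not known here. At 7D none of the 9 genes passed the test over the 3 doses, where 2.05% of all genes did, and 1 of the 9 had an unadjusted p under 0.05. That gene was Mmp14, with means of 1109.5 ± 293 (n = 5), 715 ± 177 (n = 4) and 963 ± 196 CPM (n = 3) in order of dose (adjusted p = 0.363). Its difference between 2 and 0 mg/kg was -0.63 (95% interval -1.11 to -0.15, adjusted p = 0.168), and the groups overlapped because 1 tendon at 0 mg/kg was at 633 CPM. Without that tendon the difference was -0.78 (adjusted p = 0.0488). With the muscle covariate it was -1.13 (adjusted p = 0.0153), in groups whose muscle markers did not overlap. For Mmp3 the difference between 2 and 0 mg/kg was 1.06 (95% interval -0.07 to 2.18).

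At 21D none of the 9 genes passed over the 3 doses, and 0% of all genes tested did (0 genes by edgeR, with 1366 at an unadjusted p under 0.05). Mmp19 had 87.7 ± 23.9, 133 ± 18.8 and 84.8 ± 17.1 CPM (n = 5 each) in order of dose (adjusted p = 0.311). Its 2 mg/kg tendons, at 116 to 162 CPM, were all above the 6 mg/kg tendons, at 68.2 to 104 CPM, a log2 difference (6 minus 2 mg/kg) of -0.65 with a 95% interval of -1.10 to -0.20 (adjusted p = 0.212). Mmp16 was at 26.4 ± 4.15, 38.9 ± 7.48 and 41.3 ± 6.32 CPM (adjusted p = 0.441). The intervals of the 6 minus 0 mg/kg difference at 21D were -0.28 to 0.52 for Mmp2 and -2.68 to 0.63 for Mmp9. A fall of Mmp9 by several times thus lay within its interval, and a rise of that size did not.

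In the interaction of dose with time none of the 9 genes passed, against 0.390% of all genes. The smallest p of the 9 was that of Mmp14 (unadjusted p = 0.0158, adjusted p = 0.448), whose mean at 2 mg/kg was the lowest of the 3 doses at 7D and the highest at 21D.

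Within groups, some of the genes deviated together from 1 tendon to the next. Each tendon's log2 CPM was expressed as its deviation from its group mean, over the 27 repaired tendons, and the correlations are descriptions without a test because all genes of a tendon come from the same library. Mmp9 and Mmp12 deviated together (r = 0.80, rho = 0.84, r = 0.79 without the 2 tendons farthest from the median of Mmp9). Mmp2 and Mmp14 also deviated together (r = 0.77, rho = 0.80, r = 0.76 without 2), as did Mmp14 and Mmp16 (r = 0.62, rho = 0.52, r = 0.51). Mmp23 deviated opposite to Mmp12 (r = -0.64, rho = -0.64, r = -0.60) and Mmp9 (r = -0.62, rho = -0.62, r = -0.56).

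**Figure D3:**
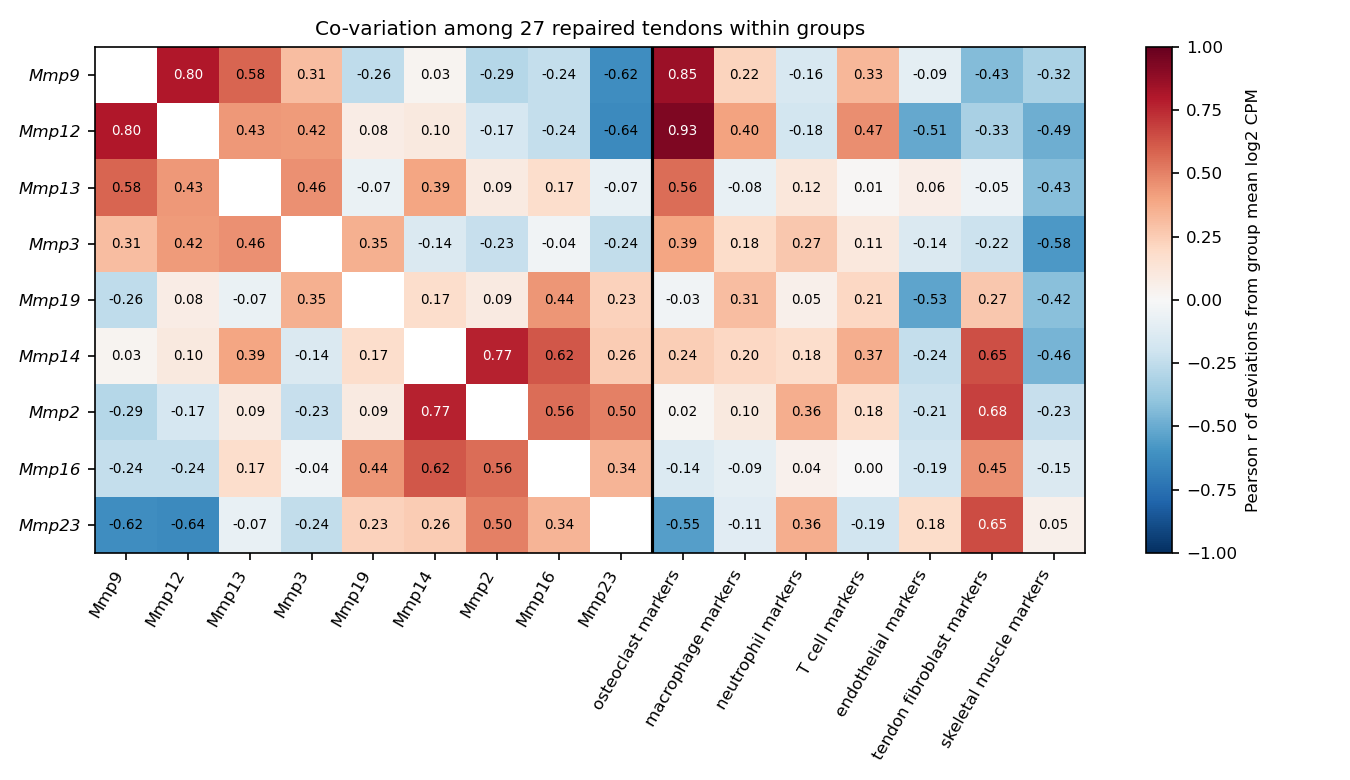
Pearson's r (color and number) between deviations from the group mean over 27 repaired tendons, for pairs of metalloproteinase genes (left of the line) and for each gene with the summed markers of 7 cell types (right). The highest values are those of Mmp12 (0.93) and Mmp9 (0.85) with the osteoclast markers, and Mmp2, Mmp14 and Mmp23 have 0.65 to 0.68 with the tendon fibroblast markers.

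Mmp9 and Mmp12 went with other cell markers than Mmp2 and Mmp14, and the split was not clean for the other genes. Mmp13 also deviated with the osteoclast markers (r = 0.56, rho = 0.50) and with Mmp9 (r = 0.58, rho = 0.51, r = 0.40 without 2). Mmp23 deviated opposite to the osteoclast markers (r = -0.55, rho = -0.52). With the summed osteoclast markers Mmp12 had r = 0.93 (rho = 0.92, r = 0.92 without 2) and Mmp9 r = 0.85 (rho = 0.85, r = 0.83), while with the macrophage markers they had r = 0.40 and 0.22, with the T cell markers 0.47 and 0.33, and with the neutrophil markers -0.18 and -0.16. Ctsk, the collagen-degrading cathepsin K that fibroblasts also make, made up most of the osteoclast sum (676 ± 133 CPM at 7D 0 mg/kg, where the sum was 597 to 1102 CPM), so single markers are also given. Mmp12 had r = 0.94 with Ocstamp and with Atp6v0d2, genes of osteoclast fusion and acid secretion that macrophages forming giant cells also express. Mmp12 had r = 0.95 with Itgax (integrin alpha X of myeloid cells) and 0.88 with Cd68, but 0.20 with Adgre1 and 0.07 with C1qa, 2 other macrophage markers, and 0.05 with Itgb3 of the osteoclast list. Mmp9 had r = 0.88 with Atp6v0d2, 0.80 with Itgax, 0.74 with Ocstamp and 0.73 with Cd68, but 0.08 with Adgre1, -0.06 with C1qa and 0.07 with Itgb3. Mean Ocstamp was 0.0134 CPM in Control and 8.04 CPM at 7D 0 mg/kg. No osteoclast was observed directly, and which cells made these transcripts was not tested.

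**Figure D4:**
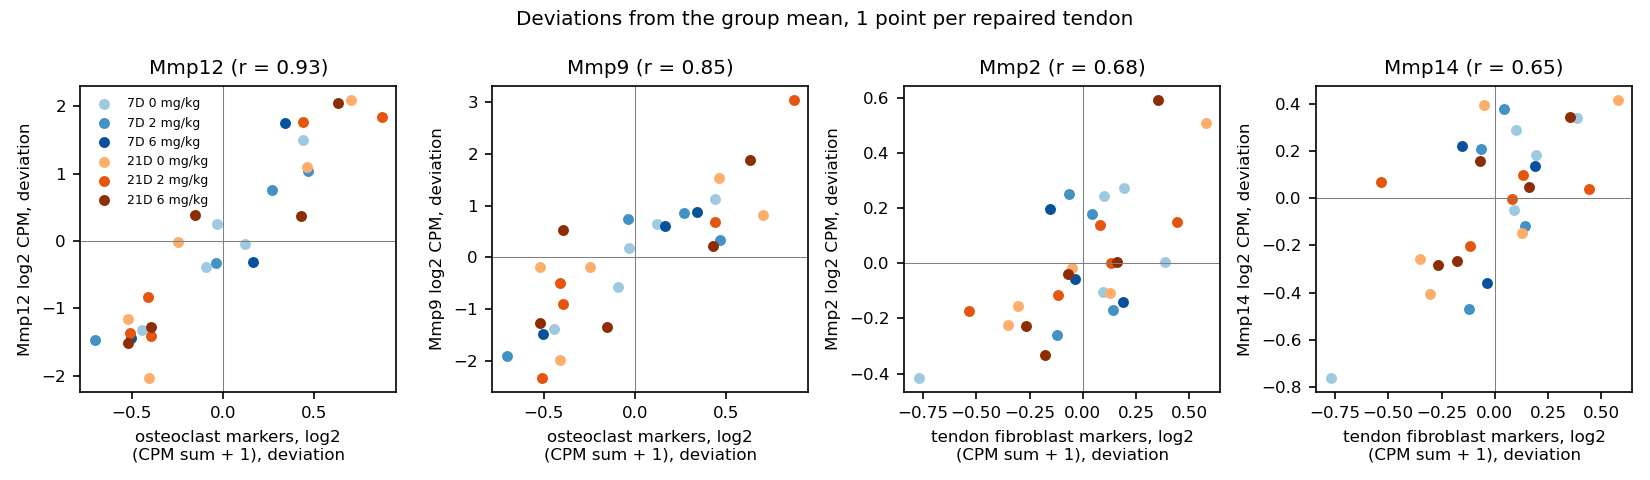
Deviation from the group mean of Mmp12, Mmp9, Mmp2 and Mmp14 (y axes, log2 CPM) against that of the summed osteoclast or tendon fibroblast markers (x axes, log2 of CPM sum plus 1), with 1 point for each of 27 repaired tendons colored by group. The points of Mmp12 (r = 0.93) and Mmp9 (r = 0.85) rise with the osteoclast markers, and those of Mmp2 (r = 0.68) and Mmp14 (r = 0.65) with the tendon fibroblast markers.

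With the summed tendon fibroblast markers, Mmp2 had r = 0.68 (rho = 0.65, r = 0.62 without 2), Mmp14 r = 0.65 (rho = 0.55, r = 0.60) and Mmp23 r = 0.65 (rho = 0.60, r = 0.58), whereas Mmp9 had r = -0.43 (rho = -0.36, r = -0.24). Single markers of this list differed, and the abundant Col1a1 was among the highest. Mmp2 had r = 0.65 with Col1a1, 0.70 with Tnmd and 0.73 with Fmod, but 0.36 with Scx, 0.28 with Mkx and -0.10 with Egr1. Mmp14 had 0.64 with Col1a1 and 0.57 with Tnmd, but 0.37 with Scx, 0.33 with Fmod, 0.32 with Thbs4, 0.06 with Mkx and -0.06 with Egr1. Mmp23 had 0.65 with Col1a1 and 0.49 with Thbs4, but 0.30 with Scx, 0.29 with Tnmd, 0.13 with Mkx and -0.27 with Egr1. Mmp16 had r = 0.45 with the sum (rho = 0.29, r = 0.23 without 2). Its single values were 0.67 with Thbs4, 0.59 with Scx, 0.48 with Tnmd, 0.47 with Fmod, 0.43 with Col1a1 and with Mkx, and -0.30 with Egr1. Mmp3 deviated opposite to the muscle markers (r = -0.58, rho = -0.59, r = -0.51). Less strongly, so did Mmp12 (r = -0.49), Mmp14 (-0.46), Mmp13 (-0.43), Mmp19 (-0.42) and Mmp9 (-0.32), while Mmp2 had -0.23, Mmp16 -0.15 and Mmp23 0.05. The muscle share thus varied along with several of these genes in the same 27 tendons. The 3 genes most like each metalloproteinase were taken from 10003 genes with a mean of 10 CPM or more in a repaired group, and their r over the 27 tendons is given in parentheses. Among the genes higher in every repaired group they were Ror2 (0.91), Sorcs2 (0.87) and Igsf3 (0.86) for Mmp14, Fndc1 (0.91), C1qtnf5 (0.89) and Tgfbi (0.87) for Mmp2, Dnajc10 (0.83), Glipr2 (0.81) and S1pr3 (0.81) for Mmp19 and Crtapl1 (0.88), Kdelr1 (0.85) and P3h3 (0.84) for Mmp23. For the genes with the widest spread they were Slamf6 (0.97), Slc6a12 (0.97) and Tm4sf19 (0.97) for Mmp12, Atp6v0d2 (0.88), Lat2 (0.87) and Tcirg1 (0.87) for Mmp9 and Fchsd1 (0.68), Cxcl3 (0.67) and Sdc1 (0.66) for Mmp13. They were Mmp10 (0.92), Pcna (0.81) and Txn1 (0.77) for Mmp3, with Mmp10 being its near relative on chromosome 8, and Matn2 (0.82), Tpbg (0.80) and Grb10 (0.79) for Mmp16.

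The partners of the metalloproteinases were read from lists of other genes of the pathway. Of 5 inhibitors found of 6, Timp1 and Timp2 rose and Timp4 fell against Control in all 6 groups. In the same comparisons 30.8% to 35.8% of all genes tested rose and 33.3% to 35.6% fell. Timp1, an inhibitor induced in inflammation, was at 46.1 ± 21.2 CPM (n = 3) in Control and 423 ± 63.5 CPM (n = 5) at 7D 0 mg/kg, a log2 fold change of 3.19 ± 0.31 (adjusted p = 4.19e-09), and of 2.42 ± 0.30 (adjusted p = 2.86e-07) at 21D 0 mg/kg. Timp2, which also takes part in the activation of proMMP2 by MT1-MMP, rose by 0.96 ± 0.22 (adjusted p = 0.000492) and 1.20 ± 0.23 (adjusted p = 5.87e-05). Timp4 fell by 1.42 (adjusted p = 0.00255) and by 2.06 (adjusted p = 8.06e-05) on the log2 scale, while without TMM scaling its 7D differences (-0.76, -0.53 and -0.73 in order of dose) did not pass. Timp3 (0.60 ± 0.25, adjusted p = 0.0356) and Reck, a membrane-anchored inhibitor (0.53 ± 0.24, adjusted p = 0.0488), passed the test against Control at 21D 2 mg/kg alone, and neither passed a test over doses.

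Of the genes of proenzyme activation, Plaur, the urokinase receptor, rose by 2.19 ± 0.33 (adjusted p = 2.14e-06) at 7D 0 mg/kg and by 2.24 ± 0.33 (adjusted p = 2.54e-06) at 21D 0 mg/kg. Of 10 cytokines and transcription factors known to induce metalloproteinases (of 11 listed), 8, 6 and 6 rose and 1 fell at 7D, and 7, 7 and 6 rose and none fell at 21D. Of all genes tested, 34.1% to 35.8% rose and 33.8% to 35.6% fell at 7D, and 30.8% to 33.8% rose and 33.3% to 35.3% fell at 21D. The gene that fell was Jun, a subunit of AP-1, by log2 differences from Control of -0.45, -0.63 and -0.93 in order of dose (adjusted p = 0.0296, 0.00550 and 0.000390), and without TMM scaling these were 0.16, -0.05 and -0.32 and did not pass. Il1b, which codes for interleukin 1 beta, rose by 3.46 ± 0.63 (adjusted p = 3.14e-05) at 7D 0 mg/kg and 2.18 ± 0.60 (adjusted p = 0.00255) at 21D 0 mg/kg.

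Genes of matrix substrates and of collagen uptake were counted in the same way. Of 9 matrix substrate genes found of 10, 7, 5 and 6 rose at 7D and 6, 4 and 5 at 21D, and none fell, beside 30.8% to 35.8% of all genes tested that rose in these comparisons. The proteoglycan gene Dcn passed in none of the 6 comparisons and Col1a1, type I collagen, in those at 7D with 0 and 6 mg/kg. Col3a1, type III collagen, rose by 2.45 ± 0.30 (adjusted p = 8.99e-08) at 7D 0 mg/kg, and the fibronectin gene Fn1 by 2.78 ± 0.45 (adjusted p = 6.90e-06). Of 6 genes of collagen uptake and lysosomal breakdown, 5, 6 and 6 rose at 7D and 5 at each dose at 21D. Among them Ctsk rose by 2.65 ± 0.42 (adjusted p = 4.44e-06) and Mrc2, the collagen uptake receptor, by 1.55 ± 0.27 (adjusted p = 1.67e-05) at 7D 0 mg/kg. None of the list genes named here passed a test over doses at 7D or 21D or in the interaction.

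Not all metalloproteinase genes were higher in repaired tendon. Of 6 other Mmp genes tested, Mmp15 and Mmp24, which code for membrane-type enzymes, fell against Control in all 6 groups, and Mmp17, another membrane-type gene, rose in all 6. Without TMM scaling all of these directions held, but Mmp15 at 21D 2 mg/kg (-0.30) and Mmp24 at 21D 0 mg/kg (-0.42) did not pass. Mmp15 was at 74.5 ± 15.6 CPM (n = 3) in Control and 29.9 ± 3.29 CPM (n = 5) at 7D 0 mg/kg, and Mmp24 at 37.7 ± 15.0 and 13.7 ± 1.49 CPM. Mmp8, the neutrophil collagenase, rose by log2 fold changes of 2.69 at 7D 0 mg/kg and 2.95 at 7D 6 mg/kg, and Mmp10 by 2.14 at 7D 2 mg/kg. Mmp27 fell at 21D 2 mg/kg, by 1.67 on the log2 scale (-1.26 without TMM scaling, which did not pass). Between 7D and 21D, Mmp17 was higher (1.99-fold, adjusted p = 0.0265) and Mmp27 lower (log2 fold change -2.03 ± 0.54, adjusted p = 0.0133) at 21D with 2 mg/kg, and Mmp15 was higher (log2 fold change 0.80 ± 0.27, adjusted p = 0.0452) at 21D with 6 mg/kg. Mmp7 was found but lay under the filter.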

How the data were processed

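Counts of 50-base single-end reads in exons were used as deposited by the authors. They had trimmed reads with fastp, aligned them with STAR to rn6 and counted them against Ensembl release 95. Samples were grouped by the labels. In this re-analysis, 12558 genes whose mean reached 3 CPM in any of the 7 groups were kept, counts were scaled by TMM, and 1 mean per group was fitted over all 30 tendons with the quasi-likelihood test of edgeR 4.0.16 in R 4.3.3 (adjusted p under 0.05, no fold threshold). The standard error is the size of the log2 fold change divided by the square root of F. Correlated values are log2 CPM with a prior count of 2. The test was checked on simulated data. The metalloproteinase genes, the pathway lists and the markers were chosen with earlier results of these data known. All listed metalloproteinase genes are named, with the 3 genes most like each and, from the lists, example genes, and 1 list gene is not reported here. Alternatives were other scalings and filters, leaving out the skeletal muscle genes, DESeq2 1.42.0, only the groups compared, a replicate block, leaving out each tendon, a prior count of 0.25 and, chosen after seeing the data, a muscle covariate. A deposited table of the authors' own fold changes and p-values was not used, except for its chromosomes. No 2 tendons of a group held the same library, as the smallest chi-square per gene between them was 29.6. Each tendon came from a separate rat. Levels are not compared between genes because exon lengths were not used here.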

Additional observations from a re-analysis of the deposited data

Results flagged for a closer look

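In 5 of 45 sets of 4 or 5 tendons (9 genes in 5 groups) the highest or lowest tendon stood apart by Dixon's 95% criterion. The criterion was applied to CPM and not to log2 CPM. Chance meets it in about 1 of 20 sets only where values are normally distributed, and the 9 genes share the same tendons. The 5 sets can therefore not be set against that rate. Mmp13 was at 109.9 CPM in 1 7D 0 mg/kg tendon, where the next highest was at 21.1 CPM. Mmp9 was at 451 CPM in 1 21D 2 mg/kg tendon and Mmp12 at 961 CPM in 1 21D 6 mg/kg tendon. Mmp2 was at 3831 CPM in 1 21D 0 mg/kg tendon, and Mmp23 was at 83.1 CPM in the lowest 7D 2 mg/kg tendon. Leaving out these tendons changed no call of the gene in question against Control.

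The level of Mmp16 was higher in the 21D than in the 7D groups, by log2 differences of 1.68, 2.01 and 2.25 in order of dose, each tested directly (adjusted p = 0.00114, 0.000100 and 0.000320).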

How the results depend on the processing

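Of the calls of each gene against Control, Mmp14 and Mmp23 kept theirs in every alternative run. Leaving out the skeletal muscle genes changed the call or direction of none of the 81 differences of the 9 genes against Control or between 7D and 21D. It does not adjust the 9 genes for the muscle content of each tendon. Of 76 pairs of tendons from different groups with the same replicate number, 29 had a correlation over 0.1 (median 0.00685). Of 307 pairs with other numbers, 89 had one (median 0.00878). These correlations are of deviations centred in each group, so they cannot decide whether the replicate numbers mark a pairing or a batch. With the replicate block the count of genes called changed in 1 of 18 comparisons, 21D against 7D at 2 mg/kg. It went from 1 to 2, by Mmp14 (0.74, adjusted p = 0.0192). DESeq2 called 2 genes, not 1, in 21D against 7D at 0 mg/kg (Mmp23) and at 2 mg/kg (Mmp14), and the fit of only the groups compared called 2 at 2 mg/kg. Leaving out 1 tendon gave 1 to 2 genes called in 21D against 7D at each dose and 0 to 1 in 2 against 0 mg/kg at 7D. Without TMM scaling, where the median of all genes moved to between 0.51 and 0.64, Mmp16 passed against Control in the 7D groups too (0.99, 1.19 and 1.06) and Mmp3 at 7D 0 mg/kg, 7D 6 mg/kg and 21D 2 mg/kg (1.75, 1.95 and 1.69).

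With the muscle covariate, chosen after seeing the data, the count was 2 at 7D 2 mg/kg and 3 at 7D 6 mg/kg, 2 in 21D against 7D at 2 mg/kg, and 1 (Mmp14) over the 7D doses, in 2 against 0 mg/kg at 7D and in the interaction. Mmp2 (1.38), Mmp9 (5.78), Mmp12 (4.25), Mmp13 (4.61), Mmp19 (1.65) and Mmp3 then no longer passed at 7D 2 mg/kg, nor Mmp9 (5.24), Mmp12 (4.37), Mmp13 (4.81) and Mmp19 (1.65) at 7D 6 mg/kg, and no other alternative took a call against Control away. Under the covariate the difference of Mmp3 from Control turned to -0.40, -0.57, -1.43, -0.34 and -0.27 at 7D 0, 2 and 6 mg/kg and 21D 0 and 6 mg/kg, and its 21D minus 7D difference to 0.065, 0.76 and 1.16 at 0, 2 and 6 mg/kg. The 21D minus 7D difference turned to 1.27 for Mmp13 at 2 mg/kg and, at 6 mg/kg, to 0.22 for Mmp2, 0.91 for Mmp9, 1.97 for Mmp12, 0.44 for Mmp13, 0.54 for Mmp14 and 0.29 for Mmp19. None of these passed the test. The cause was not tested.

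Other changes of sign were in 21D minus 7D differences that had not passed. For Mmp2 at 0 mg/kg it was -0.035 without TMM scaling and -0.015 with the replicate block, and for Mmp9 at 2 mg/kg -0.22 with the replicate block. Leaving out 1 tendon gave ranges that crossed 0. At 0 mg/kg they were -0.14 to 0.075 for Mmp2, -0.19 to 0.64 for Mmp9, -0.092 to 1.23 for Mmp12 and -0.95 to 0.31 for Mmp13. At 2 mg/kg the range was -1.50 to 0.37 for Mmp9, the lowest without the tendon at 451 CPM. At 6 mg/kg they were -0.28 to 0.0064 for Mmp2 and -1.19 to 1.02 for Mmp12. No call of the 9 genes was lost by leaving out a tendon. The limits on precision are the 3 Control tendons, shared by all comparisons with Control, the low counts of Mmp9, Mmp12 and Mmp13 in them, and the spread of Mmp9 and Mmp12 within groups.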
